A study of Mus musculus with 6 samples.

Results

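Small leucine-rich proteoglycans are secreted proteins of the extracellular matrix, built around a curved run of leucine-rich repeats that binds collagen. The 10 genes examined here were taken by name, as members of this family, from an RNA-seq table of Achilles tendon that holds 53726 distinct lines. They are Dcn (decorin), Bgn (biglycan), Fmod (fibromodulin), Lum (lumican), Prelp (prolargin), Kera (keratocan), Aspn (asporin), Ogn (osteoglycin, also called mimecan), Omd (osteomodulin) and Epyc (epiphycan). All 10 were found in the table. RNA came from mice of 3 genotypes at 4 weeks of age, with 1 library each. Control mice were Dicer f/f, with floxed but intact Dicer alleles and no Cre. ScxHt mice carried the ScxCre/+ knock-in with Dicer +/+ alleles, and Dicer cKO mice carried ScxCre/+ with Dicer f/f. The knock-in replaces one Scx allele, so ScxHt and Dicer cKO mice share the loss of one copy of Scx, the gene of a tendon transcription factor, and Cre acts only in cells that use the Scx promoter. The libraries hold 14936241 to 16218733 counts. With 1 mouse per genotype the spread between mice is unknown, no test was possible and no p-value is given. Intervals are at 95% and cover counting error alone, with each read treated as an independent count. Reads amplified by PCR do not each stand for a separate molecule, so the intervals may be too narrow.

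In tendon these proteoglycans sit on the surface of collagen fibrils and are known to influence how wide and how regular the fibrils become. Class I members (Dcn, Bgn and Aspn) resemble decorin. Dcn and Bgn carry chondroitin or dermatan sulfate chains, whereas Aspn has a run of aspartate in place of a chain. Class II members (Fmod, Lum, Prelp, Kera and Omd) can carry keratan sulfate or sulfated tyrosine, and Prelp has a basic end that binds heparan sulfate. Ogn and Epyc form class III. Mice that lack decorin, biglycan, fibromodulin or lumican are known to have altered collagen fibrils.

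Fmod was the most abundant of the 10 genes in every library. Levels between genes are given as RPKM, read counts scaled by transcript length and by the library total. Fmod had 1848 RPKM in Control (counting interval 1837 to 1860), 2140 in ScxHt and 879 in Dicer cKO, which placed it 27th, 19th and 43rd among all genes of the 3 libraries. Dcn followed with 605, 802 and 343 RPKM, and Bgn with 359, 663 and 328 RPKM in the same order of libraries. These 3 genes lay well above the rest of the set.

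Below them in Control came Prelp at 159 RPKM, Kera at 150, Ogn at 104, Aspn at 56.8 and Lum at 29.1, with Omd below them at 9.60 to 22.9 over the 3 libraries. No neighbours in this order had overlapping counting intervals in any of the 3 libraries. Epyc, known mainly from growth cartilage, had 6 reads in Control, 7 in ScxHt and 0 in Dicer cKO, so it was near the limit of detection. The order of the other genes was kept in ScxHt and Dicer cKO except for Prelp, which ranked the fourth in Control but came behind Kera and Ogn in ScxHt with 153 RPKM and also behind Aspn in Dicer cKO with 27.5 RPKM. Lum, a major proteoglycan of cornea, had a lower level than Kera in all 3 libraries, with a Kera/Lum ratio of 5.14 to 6.34. The Kera/Lum pair was not among the planned ratios and was added after the values were seen.

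**Figure D1:**
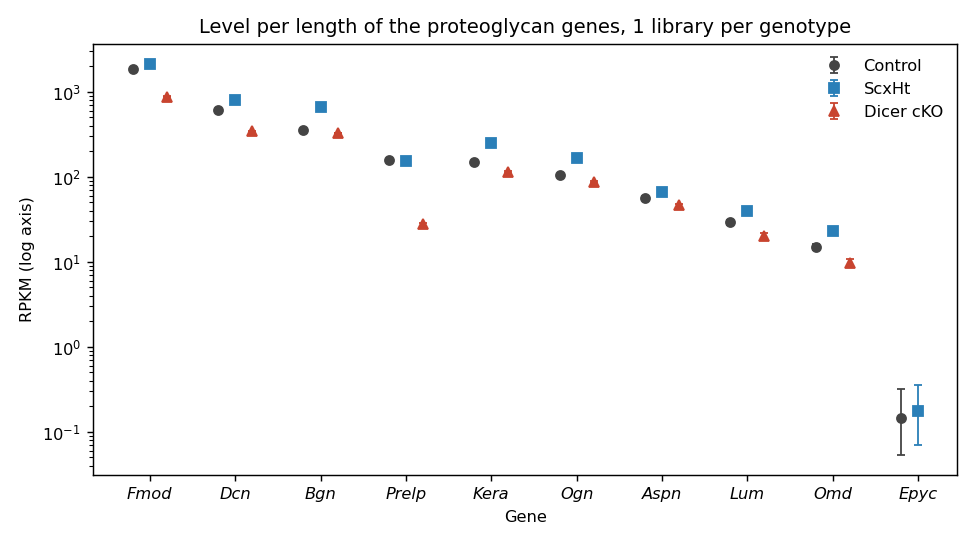
Level per length (RPKM, log axis) of each proteoglycan gene in the Control, ScxHt and Dicer cKO library, with 95% Poisson intervals of counting error as bars. Fmod was highest in all 3 libraries and Prelp dropped from 159 RPKM in Control to 27.5 in Dicer cKO; the Dicer cKO value of Epyc is 0 and cannot be drawn on this axis.

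Dicer cKO was first compared with Control. These mice differ in the intended loss of Dicer in Scx-expressing cells and also in the ScxCre knock-in, which cannot be told apart in this comparison. Ratios are of normalized counts, that is, counts scaled by the DESeq2 size factors of both libraries in question, for genes whose mean normalized count exceeded 50. The study's limits are used to call a gene lower, at a ratio under 0.60, or higher, at a ratio over an upper limit that is about the reciprocal of 0.60. Of the 10 proteoglycan genes, 9 passed the minimum and Epyc did not. All 9 had a ratio below 1 with the whole interval below 1, and 3 of them (Prelp, Fmod and Dcn) were below 0.60, whereas none was above the upper limit. Among the 13404 genes analysed, 4.19% were below 0.60 and 3.87% above the upper limit. A ratio below 1 was found for 54.2% of them, with the whole interval below 1 for 28.5% and above 1 for 21.6%, since counting intervals are narrow for genes with many reads. The median log2 ratio was -0.60 over the 9 genes and -0.03 over all genes.

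Among class II genes, Prelp had the lowest ratio. It had 9313 reads in Control, 8716 in ScxHt and 1486 in Dicer cKO. The Control and ScxHt libraries were close to each other and the Dicer cKO library was far below both. Its Dicer cKO/Control ratio was 0.166 (0.157 to 0.175), and 0.0298% of all genes analysed had a lower one. Fmod had 99254, 111544 and 43491 reads, with the Dicer cKO library again alone at the low end, and a ratio of 0.455 (0.450 to 0.460).

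Omd, a keratan sulfate proteoglycan of mineralized tissue, had 549, 812 and 323 reads. Its ratio of 0.611 (0.531 to 0.702) lay just outside the limit. Lum had 1157, 1536 and 735 reads and a ratio of 0.660 (0.601 to 0.724). Kera, with 5539, 9065 and 3894 reads, had a ratio of 0.730 (0.701 to 0.761). In these 3 genes the ScxHt library was highest, Control was between, and Dicer cKO was lowest.

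The class I genes differed among themselves. Dcn, the decorin gene, had 57347 reads in Control, 73864 in ScxHt and 29955 in Dicer cKO, a ratio of 0.542 (0.535 to 0.550). Bgn had 35556, 63782 and 29965 reads and the highest ratio of the 9 genes, 0.875 (0.862 to 0.889). Control and Dicer cKO were thus close together for Bgn, and ScxHt stood above both. Aspn had 2171, 2435 and 1620 reads and a ratio of 0.775 (0.726 to 0.827). In class III, Ogn had 4351, 6661 and 3329 reads and a ratio of 0.794 (0.759 to 0.831). Epyc, with 6 Control reads and 0 in Dicer cKO, had a ratio of 0 with an interval of 0 to 0.882. With the 0 set to a floor of 3 reads, Epyc would be 1.93-fold lower in Dicer cKO than in Control. That value depends on the chosen floor and is not a bound.

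The targeted gene itself, Dicer1, had 1919 reads in Control, 2025 in ScxHt and 1621 in Dicer cKO. Its Dicer cKO/Control ratio was 0.877 (0.821 to 0.938), and 31.5% of all genes analysed had a lower one. The paper found Dicer lower by real-time PCR in these tendons, though not dramatically. It proposes inefficient or mosaic recombination by Cre as possible reasons, which was not tested here. Reads from anywhere in the gene enter this count, including those of a transcript that has lost the floxed exons. Fewer tendon cells and less RNA per cell cannot be told apart in such bulk libraries.

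**Figure D2:**
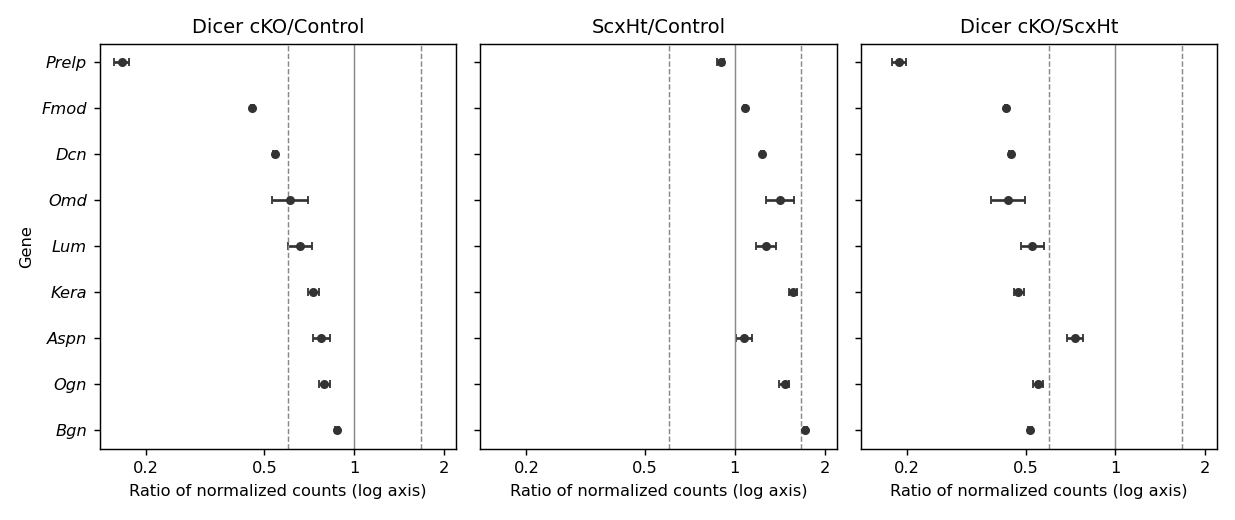
Ratio of normalized counts (log axis) for the 9 proteoglycan genes that passed the minimum, in the 3 comparisons between libraries, with 95% counting intervals as bars; the solid line marks 1 and the dashed lines the lower and upper limits. All 9 genes lie below 1 in both comparisons of Dicer cKO, from 0.166 for Prelp to 0.875 for Bgn against Control, and 8 of 9 lie above 1 for ScxHt/Control.

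ScxHt was compared with Control, as both mice have functional Dicer alleles. They differ in the ScxCre knock-in and also in the Dicer alleles, which are floxed in Control and wild type in ScxHt, and these cannot be told apart here. Most of the proteoglycan genes were higher in ScxHt. For 8 of the 9 genes the whole interval lay above 1, and for Prelp it lay below 1, at 0.896 (0.871 to 0.923). Only Bgn passed the upper limit, with a ratio of 1.72 (1.70 to 1.74), and no gene was below 0.60. Of the 13462 genes analysed here, 3.03% were above the upper limit and 4.71% below 0.60, 26.4% had the whole interval above 1 and 23.8% had it below 1, so intervals past 1 were common. A count of 1 gene of 9 past the upper limit is too few to set against this background. Kera had a ratio of 1.57 (1.52 to 1.62), Ogn one of 1.47 (1.41 to 1.52) and Omd one of 1.42 (1.27 to 1.58). Lum and Dcn had ratios of 1.27 (1.18 to 1.37) and 1.23 (1.22 to 1.25). Fmod and Aspn were lowest of the 8, at 1.08 (1.07 to 1.09) and 1.07, with the interval of Aspn just above 1. The median log2 ratio was 0.35 over the 9 genes and 0.02 over all genes.

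Dicer cKO against ScxHt compares 2 mice that both carry ScxCre. All 9 genes were lower in Dicer cKO with the whole interval below 1, and 8 were below 0.60, the exception being Aspn at 0.733 (0.688 to 0.781). None was above the upper limit. In this comparison 5.68% of the 13455 genes analysed were below 0.60 and 7.68% above the upper limit, and the whole interval lay below 1 for 30.6% and above 1 for 24.9%. Prelp was again lowest at 0.188 (0.178 to 0.199). Fmod, Omd, Dcn and Kera lay between 0.430 and 0.473, and Bgn, Lum and Ogn between 0.518 and 0.551. Bgn, which was nearest to 1 against Control, had a ratio of 0.518 (0.511 to 0.525) against ScxHt. The median log2 ratio was -1.08 over the 9 genes and -0.03 over all genes. The 3 comparisons share libraries and are not independent of one another.

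The 10 genes together held 1.33% of all counts in Control (exact binomial interval 1.32 to 1.33), 1.77% in ScxHt (1.76 to 1.77) and 0.769% in Dicer cKO (0.764 to 0.773). The make-up of this transcript pool also differed between the libraries, and shares within a library do not depend on scaling between libraries. Per length, Fmod made up 55.6% of the pool in Control, 49.7% in ScxHt and 47.4% in Dicer cKO. Dcn held nearly the same share in all 3, at 18.2%, 18.6% and 18.5%. The share of Bgn was 10.8% in Control, 15.4% in ScxHt and 17.7% in Dicer cKO. Prelp went the other way, with 4.77%, 3.55% and 1.48%. Kera had shares of 4.50%, 5.86% and 6.16% and Ogn shares of 3.14%, 3.83% and 4.68%. Aspn held 1.71%, 1.52% and 2.48% of the pool. Lum held 0.875% to 1.08% and Omd 0.452% to 0.532%.

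**Figure D3:**
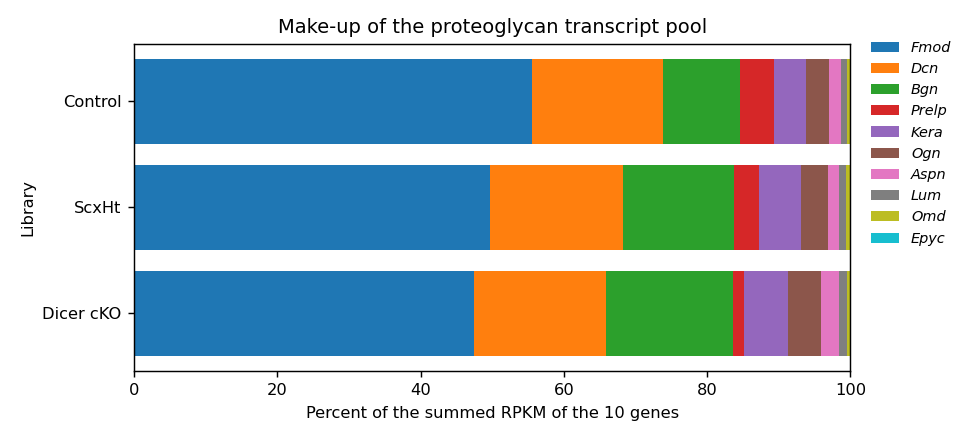
Share of each gene (percent of the summed RPKM of the 10 genes) in the Control, ScxHt and Dicer cKO library, 1 library per bar. The Dcn share is 18.2% to 18.6% in all 3 libraries, whereas that of Bgn is 10.8% in Control and 17.7% in Dicer cKO and that of Prelp is 4.77% and 1.48%.

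Decorin and biglycan are close relatives, and biglycan is known to be high in young tendon and to decline with maturation, while decorin persists. The Bgn/Dcn ratio of levels per length was 0.593 in Control (0.586 to 0.601), 0.827 in ScxHt (0.818 to 0.835) and 0.958 in Dicer cKO (0.942 to 0.973). Bgn therefore approached Dcn in Dicer cKO, and the 3 intervals did not overlap. Fibromodulin and lumican compete for the same region of type I collagen. The Fmod/Lum ratio was 63.5 (59.9 to 67.4), 53.8 (51.1 to 56.6) and 43.8 (40.8 to 47.2) in Control, ScxHt and Dicer cKO. Fmod/Dcn was 3.06 (3.03 to 3.09) in Control, 2.67 (2.64 to 2.69) in ScxHt and 2.56 (2.53 to 2.60) in Dicer cKO. Lum/Dcn was 0.0481, 0.0496 and 0.0585, with overlapping intervals for Control and ScxHt. Aspn/Dcn was highest in Dicer cKO, at 0.134 (0.128 to 0.141), against 0.0939 in Control and 0.0818 in ScxHt. Fmod/Prelp, a pair added after the values were seen, was 11.7 in Control (11.4 to 11.9), between 13.7 and 14.3 in ScxHt and 32.0 in Dicer cKO (30.4 to 33.7).

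Because the proteoglycans coat collagen fibrils, their counts were also set against the summed counts of Col1a1, Col1a2 and Col3a1, the main fibrillar collagen genes of tendon. The collagens held 12.5% of all counts in Control, 10.6% in ScxHt and 7.26% in Dicer cKO. For every 100 collagen counts there were 10.6 counts of the 10 proteoglycan genes in Control (10.6 to 10.7), 16.7 in ScxHt (16.7 to 16.8) and 10.6 in Dicer cKO (10.5 to 10.6). Relative to collagen, the proteoglycan sum was thus nearly equal in Control and Dicer cKO and higher in ScxHt.

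Single genes split on this scale, and the split was looked at after the sum was known. Dcn had 28.3 counts per 1000 collagen counts in Control, 44.4 in ScxHt and 27.6 in Dicer cKO. Bgn had 17.5, 38.3 and 27.6, and Fmod had 49.0, 67.0 and 40.1. Relative to collagen, the Dicer cKO/Control ratio was above 1 with its whole interval for Bgn at 1.57, Ogn at 1.43, Aspn at 1.39, Kera at 1.31 and Lum at 1.19. Omd, at 1.10 (0.955 to 1.26), could not be told from 1 at this depth. Dcn was just below 1 at 0.976 (0.963 to 0.990), Fmod was at 0.819 (0.810 to 0.828) and Prelp at 0.298 (0.282 to 0.315). Of the 9 genes, Prelp, Fmod and Dcn had whole intervals below 1 on both scales, Dcn by a small margin on the collagen scale.

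**Figure D4:**
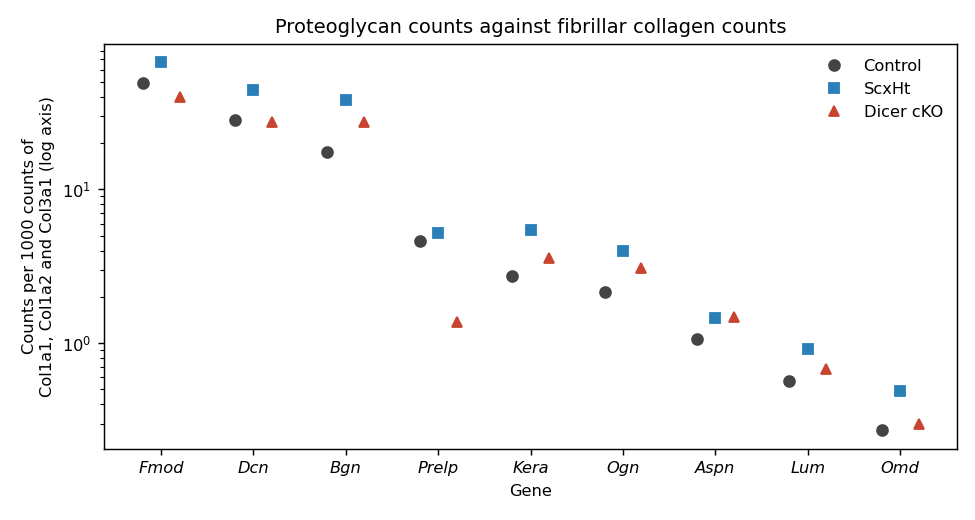
Counts of each proteoglycan gene per 1000 counts of Col1a1, Col1a2 and Col3a1 (log axis) in the Control, ScxHt and Dicer cKO library, 1 point per library. Dcn had 28.3 in Control and 27.6 in Dicer cKO, Bgn was higher in Dicer cKO at 27.6 than in Control at 17.5, and Prelp was at 4.60 and 1.37.

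All but Bgn, which lies alone on the X chromosome, belong to 3 gene clusters of the mouse genome. Positions are from GENCODE vM21 on GRCm38, the build the authors mapped to. On chromosome 10, Dcn (97479609 to 97518143), Lum (97565128 to 97572703), Kera (97606879 to 97613692) and Epyc (97644068 to 97682454) follow each other on the plus strand within 203 kb. The 3 of them that passed the minimum had Dicer cKO/Control ratios of 0.542 to 0.730. On chromosome 13, Ecm2, Aspn (49544443 to 49567565), Omd (49582462 to 49592822) and Ogn (49608046 to 49624501) lie within 120 kb, with ratios of 0.611 to 0.794. On chromosome 1, Prelp (133910304 to 133921414, minus strand) and Fmod (134037254 to 134048277, plus strand) are 116 kb apart, with ratios of 0.166 and 0.455. Bgn spans 73483602 to 73495933 of the X chromosome. The 2 lowest ratios among the 9 genes therefore belong to neighbours on chromosome 1.

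Some counts could include reads of overlapping genes, since the strand setting of the authors' counting is not given in the sources used here. Cenpp lies on the opposite strand over Aspn, Omd and Ogn, and shares exon bases with Aspn. Cenpp itself had 38 reads in Control, 42 in ScxHt and 48 in Dicer cKO, far fewer than any of the 3. Exons of Prelp overlap those of the antisense gene Gm15851, and exons of Epyc overlap those of Gm10754. For Prelp, reads of the 2 strands cannot be told apart.

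Promoters are shown for the neighbours with the 2 lowest ratios and for the gene with the highest one, so that the ends of the range of Dicer cKO/Control ratios can be compared. Each is the stretch of 200 bases before the RefSeq start site (GRCm38.p6), written on the strand of the gene. Capitals mark a match to CAGATG on either strand, the E-box form that the factor Scx is known to bind.
Fmod, chr1:134037054-134037253, plus strand: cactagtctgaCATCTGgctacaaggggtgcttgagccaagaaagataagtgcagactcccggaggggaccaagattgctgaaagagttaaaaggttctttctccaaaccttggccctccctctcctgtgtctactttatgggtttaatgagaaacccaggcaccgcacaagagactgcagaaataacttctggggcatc
Prelp, chr1:133921402-133921601, minus strand: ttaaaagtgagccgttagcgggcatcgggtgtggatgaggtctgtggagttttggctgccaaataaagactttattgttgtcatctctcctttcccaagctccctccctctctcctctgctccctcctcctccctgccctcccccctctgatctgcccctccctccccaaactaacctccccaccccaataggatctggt
Bgn, chrX:73483401-73483600, plus strand: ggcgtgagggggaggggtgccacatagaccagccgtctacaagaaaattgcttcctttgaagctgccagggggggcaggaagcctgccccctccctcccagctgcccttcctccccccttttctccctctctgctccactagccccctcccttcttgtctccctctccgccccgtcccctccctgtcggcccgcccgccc

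The RefSeq table holds a promoter for 8 of the 10 genes (9 promoters, since Epyc has 2), and none for Dcn and Lum. Over 250 bases before the start, CAGATG on either strand was in 1 of these 9 promoters, that of Fmod, and in 14.4% of all 32851 promoters. The wider E-box CANNTG, which includes CAGATG and reads the same on both strands, was in 5 of 9 and in 66.2% of all. TATAAA on either strand was in 2 of 9, those of Aspn and Ogn, and in 12.4% of all. The share of G and C in the 250 bases was 64.4% for Bgn, 55.6% for Prelp and 51.2% for Fmod, and 30.0% to 42.4% for the others. A match of letters is a description of the sequence and shows no binding.

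Of 7 other genes of the wider family, 4 passed the minimum and 3 (Optc, Nyx and Podnl1) had at most 12 reads in any library. Chad (chondroadherin, which binds cells through an integrin) had 607, 652 and 254 RPKM in Control, ScxHt and Dicer cKO, a level close to that of Dcn in Control but not in the other 2 libraries. Its Dicer cKO/Control ratio was 0.401 (0.389 to 0.413), below that of Fmod, and the interval of its ScxHt/Control ratio, 0.979 to 1.02, included 1. Tsku (tsukushi, a secreted modulator of growth factor signals) had 136, 204 and 57 reads and a ratio of 0.435 (0.314 to 0.597). Ecm2, the neighbour of Aspn, had 4748, 5702 and 2991 reads and a ratio of 0.654 (0.625 to 0.685). Podn (podocan) had 540, 541 and 473 reads and a ratio of 0.910 (0.802 to 1.03), so no difference was detectable at this depth.

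Genes that build the chondroitin and dermatan sulfate chains of decorin and biglycan were examined next. Of 25 such genes, 22 passed the minimum for Dicer cKO/Control. The interval lay below 1 for 17 and above 1 for 1, against 28.5% and 21.6% of all genes. Of the 22, 5 were below 0.60 and none above the upper limit, against 4.19% and 3.87% of all genes. The median log2 ratio was -0.47. The lowest was Chst14, the sulfotransferase specific to dermatan sulfate, with 118 reads in Control, 118 in ScxHt and 48 in Dicer cKO and a ratio of 0.422 (0.295 to 0.596). Chst12, a chondroitin sulfotransferase, had 656, 861 and 294 reads and a ratio of 0.465 (0.404 to 0.535). The 2 xylosyltransferases that start the chains differed. Xylt2 had 144, 195 and 181 reads and a ratio of 1.31 (1.04 to 1.64), and Xylt1, with more reads at 1434, 1491 and 708, had a ratio of 0.513 (0.468 to 0.561). For ScxHt/Control the median log2 ratio of this list was 0.07, with none of 23 genes past either limit. Of all genes, 3.03% were above the upper limit and 4.71% below 0.60 in that comparison, so so few genes can show little.

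Of 8 genes of keratan sulfate synthesis, 5 passed the minimum. For Dicer cKO/Control none was past a limit. The interval lay below 1 for 3 and above 1 for none, against 28.5% and 21.6% of all genes. B3gnt2, which extends the chain, had 121, 124 and 71 reads and a ratio of 0.609 (0.448 to 0.823), and Chst1, its sulfotransferase, had 232, 245 and 262 reads and a ratio of 1.17 (0.979 to 1.41). In the list of tyrosine sulfation and sulfate supply, the interval lay below 1 for 5 of 7 genes and above 1 for 1. These counts stand against the same 28.5% and 21.6% of all genes, and none was past a limit. The sulfate transporter Slc26a2 was lowest at 0.695 (0.619 to 0.779), and Slc35b3, a transporter of the sulfate donor, was highest at 1.33 (1.10 to 1.61).

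Bmp1 and the tolloid protease Tll1 cut the propeptides of biglycan and osteoglycin as well as of procollagen. Bmp1 had 2616, 2491 and 1942 reads and a Dicer cKO/Control ratio of 0.771 (0.727 to 0.818), and Tll1 had 268, 214 and 146 reads and a ratio of 0.566 (0.459 to 0.695). Pcolce2, an enhancer of procollagen cleavage, had a ratio of 0.436 (0.409 to 0.465), and Furin was highest of this list at 0.941 (0.857 to 1.03). Of 6 genes in the list, 5 passed the minimum. The interval lay below 1 for 4 of them, against 28.5% of all genes, and 2 were below 0.60, against 4.19%. All 6 proteases that passed the minimum, of 9 listed as able to cut these proteoglycans, had intervals below 1 for Dicer cKO/Control, as did 28.5% of all genes, and above 1 for ScxHt/Control, as did 26.4%. Their Dicer cKO/Control ratios were 0.644 for Adamts5, an aggrecanase, 0.677 for Mmp3 and up to 0.818 for Ctsk, the collagen-cutting cathepsin K.

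Among 19 signalling partners (TGF-beta ligands, BMPs, receptor kinases and Toll-like receptors that bind these proteoglycans), the median log2 Dicer cKO/Control ratio was -0.33. The interval lay below 1 for 11 and above 1 for 1, against 28.5% and 21.6% of all genes. Bmp2 was the 1 gene below 0.60, as were 4.19% of all genes. Its ratio was 0.577 (0.429 to 0.771), and Bmp2 was lower in ScxHt as well, at 0.525 (0.390 to 0.702). Tlr2, a receptor that biglycan activates, had 159, 180 and 95 reads and a ratio of 0.620 (0.476 to 0.805). The highest ratios were 1.16 for Ccn5, a matricellular protein, and 1.15 (0.976 to 1.37) for Bmp4, both with intervals that included 1, and the 1 interval above 1 was that of Kdr, a VEGF receptor, at 1.13 (1.07 to 1.20).

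The 12 collagen genes all had intervals below 1 for Dicer cKO/Control, against 28.5% of all genes. Of them, 3 were below 0.60, against 4.19% of all genes. Their median log2 ratio was -0.58, close to the -0.60 of the proteoglycan genes. The ratio was 0.542 (0.540 to 0.543) for Col1a1, the same as for Dcn to 3 digits, and 0.852 (0.838 to 0.865) for Col12a1. For ScxHt/Control the interval lay above 1 for 9 of the 12 collagens and below 1 for 3, against 26.4% and 23.8% of all genes. The median log2 ratio of the collagens was 0.31, near the 0.35 of the proteoglycan genes. Col1a1, at 0.703 (0.701 to 0.705), was among the 3, and it makes up most of the collagen sum used above, whereas Col3a1 had a ratio of 1.37 (1.35 to 1.38). Of 12 genes listed with the large proteoglycans, 8 passed the minimum, with a median log2 Dicer cKO/Control ratio of -0.55. The interval lay below 1 for 5 and above 1 for none, against 28.5% and 21.6% of all genes. Of the 8, 3 were below 0.60, against 4.19% of all genes. The ratio was 0.554 (0.539 to 0.569) for Vcan (versican) and 0.481 (0.467 to 0.495) for Prg4 (lubricin). Hapln1, a link protein, had a ratio of 0.988 (0.905 to 1.08), and Agrn was highest at 1.08 (0.965 to 1.22).

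**Figure D5:**
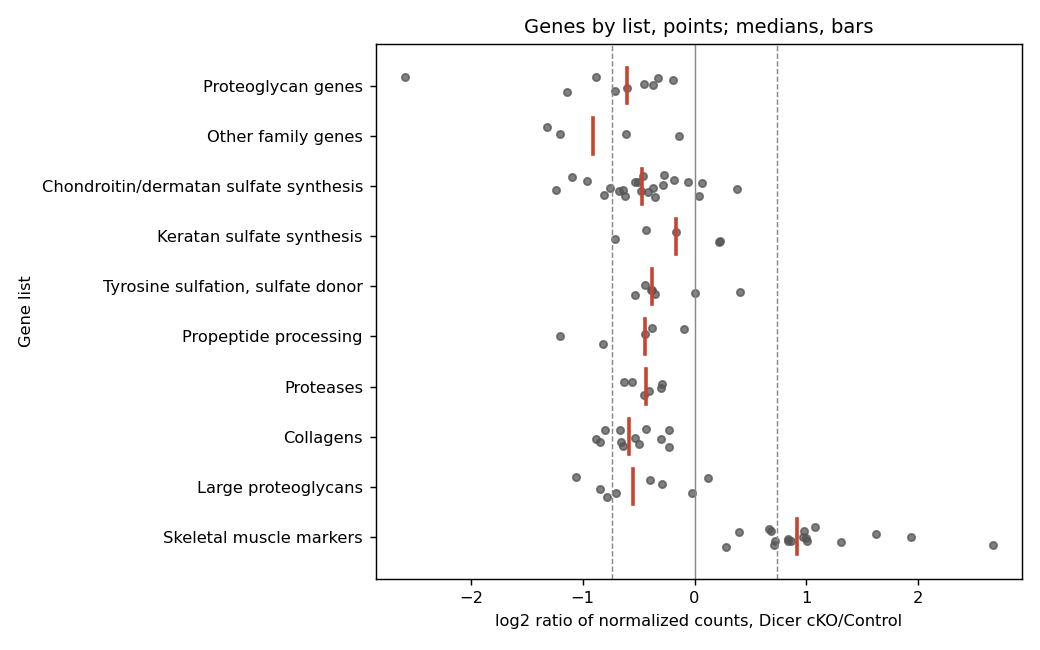
log2 Dicer cKO/Control ratio of the genes of 10 lists that passed the minimum, 1 point per gene, with the list's median as a bar; the solid line marks 0 and the dashed lines the lower and upper limits. The proteoglycan genes have a median of -0.60 and the collagens one of -0.58, and all 18 skeletal muscle markers lie above 0 with a median of 0.91.

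Tendon markers were present in every library, and markers of other tissues differed between the libraries. None of 10 tenocyte markers was at 0, and their Dicer cKO/Control ratios ran from 0.365 for Scx to 0.948 for Tnmd. Scx, of which ScxHt and Dicer cKO mice both lack 1 copy, also had a low ScxHt/Control ratio, 0.623 (0.565 to 0.686). The 18 skeletal muscle markers took 6.67% of the counts in Control, 3.77% in ScxHt and 11.5% in Dicer cKO, with a summed level of 7084, 5287 and 13017 RPKM and no marker at 0. All 18 had intervals above 1 for Dicer cKO/Control, against 21.6% of all genes. Macrophage markers summed to 93.4, 175 and 71.7 RPKM, highest in ScxHt and lowest in Dicer cKO, which is the order of 8 of the 9 proteoglycan genes. This order was not particular to macrophage markers. The sum of the cartilage and bone markers had it too. Of the 10 tenocyte markers, all lower in Dicer cKO than in Control, 6 were higher and 4 lower in ScxHt than in Control. Among all genes analysed, 54.2% had a ratio below 1 for Dicer cKO/Control and 47.4% for ScxHt/Control. The 8 Schwann cell markers summed to 92.3, 123 and 276 RPKM and the 7 erythroid markers to 244, 246 and 591 RPKM, none of them at 0. Endothelial markers summed to 112, 82.6 and 132 RPKM, adipocyte markers to 292, 375 and 349 RPKM, and cartilage and bone markers to 123, 168 and 56.2 RPKM, with 3 of these 11 at or under 3 reads in every library.

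When muscle markers and mitochondrial genes were left out of the library totals, all 9 proteoglycan genes had intervals below 1 in Dicer cKO/Control, and the ratios ran from 0.185 for Prelp to 0.978 for Bgn. Dcn then had a ratio of 0.606, which left 2 genes below 0.60. This scaling shifted every log2 ratio by 0.16 and turned the split of all genes from 519 higher and 561 lower to 941 higher and 303 lower. With total counts the split was 667 higher and 438 lower. The part of the other cell types in the lower ratios was not tested.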

How the data were processed

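RNA-seq of Achilles tendon covered 1 library per genotype (Control, ScxHt and Dicer cKO). Reads were trimmed of adaptors by the authors, aligned to GRCm38 (TopHat, Bowtie2) and counted per gene by HTSeq. The authors deposited raw counts, and RPKM values that equal these counts per exonic length and library total. Versions, annotation release and strand setting are not given in the sources used here. Of 54189 lines, 463 duplicates (same gene name, same counts) were removed. Ratios were taken on the deposited counts after scaling with DESeq2 1.42.0 (R 4.3.3) size factors of the 2 libraries compared, with 95% Clopper-Pearson intervals (scipy 1.17.1). The minimum mean of 50, the limit of 0.60 and the upper limit, about its reciprocal, follow the study's methods. Deposited RPKM values were used for levels between genes.

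The genes, the 18 lists and the rule for naming list genes (2 highest and 2 lowest Dicer cKO/Control ratios) were chosen with earlier results of these data known. Not all genes that this rule picks are named above. Some left out had ratios above 1, such as Chst11 at 1.05 and B4galt4 at 1.17, and others were low, such as Col5a1 at 0.553. Xylt1, Kdr and Col3a1 were named after their values were seen. Ccn5 was read as Wisp2, its older symbol. Alternatives were 6 scalings, including edgeR 4.0.16 TMM, other minimums and limits, and a pseudocount of 1. The ratio step was also run on simulated Poisson counts with known ratios and given size factors. These counts hold no spread between mice and no PCR duplicates, so the run checks the calculation only. Columns of 3 small RNA-seq libraries were not used here. Protein sequences were not analysed here.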

Additional observations from a re-analysis of the deposited data

How the results depend on the processing

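Under the 6 other scalings and the pseudocount, no proteoglycan gene changed side of 1 in any comparison, and the intervals of all 9 stayed below 1 against Control and against ScxHt in Dicer cKO under the scalings. Leaving muscle and mitochondrial genes out of the totals gave a list median log2 ratio of -0.44 for Dicer cKO/Control and -0.98 for Dicer cKO/ScxHt, and 941 higher and 303 lower genes in the first. Total counts gave a median of -1.14 for Dicer cKO/ScxHt, 640 higher genes and 2 proteoglycan genes above the upper limit for ScxHt/Control, and turned its split from 408 higher and 634 lower to 640 and 456. Leaving out muscle turned the Dicer cKO/ScxHt split from 1033 and 764 to 1298 and 536, and total counts reversed it to 897 and 962. Total counts shifted all log2 ratios by 0.11 in ScxHt/Control and by -0.06 in Dicer cKO/ScxHt, where leaving out muscle shifted them by 0.10. Scaling by collagen counts, chosen after seeing the data, reversed the Dicer cKO/Control median to 0.25 and moved the ScxHt/Control median to 0.69 and that of Dicer cKO/ScxHt to -0.60, since the collagen share was 12.5% in Control, 10.6% in ScxHt and 7.26% in Dicer cKO.

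With minimums of 10, 200 and none, higher and lower genes numbered 1555 and 1426, 160 and 237, and 5347 and 5458 for Dicer cKO/Control, 1223 and 1588, 85 and 283, and 5159 and 5496 for ScxHt/Control, and 2165 and 1544, 520 and 380, and 5958 and 5624 for Dicer cKO/ScxHt. Limits of 2 and 0.5 gave 214 and 214, 124 and 289, and 605 and 315, with 0 proteoglycan genes above 2 for ScxHt/Control and 5 below 0.5 for Dicer cKO/ScxHt. By raw counts the Fmod share of the pool was 46.1%, 40.1% and 37.9%. No paired analysis was possible because each genotype has 1 library. With 1 mouse per genotype, differences between mice and between genotypes cannot be told apart, and counting error limits Epyc, Omd, whose interval spans 0.60, and the rarer family genes most.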
